A study of Mus musculus with 3 samples.

Results

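The forkhead, SOX, T-box and GATA genes encode 4 families of DNA-binding transcription factors, and 55 of the 15311 genes with counts belonged to them here. The members were all rows whose symbol was Fox with a letter from a to s and a number, Sox or Tbx with a number, or Gata1 to Gata6. Sox2, Sox7, Sox17, Tbx3, Gata4 and Gata6 also carry such symbols and were left out. The members were 33 forkhead genes, 12 SOX genes, 8 T-box genes and 2 GATA genes. The families hold 76 such annotated protein-coding genes without the 6 left out (RefSeq, GRCm38.p6), and the other 21 had no row and were not analysed here. No row of the table had a count of 0 in any library, and every member had at least 1 read in each library.

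The 3 libraries, 1 of K3R3 and 2 of wild type, were made from polyadenylated RNA of embryonic stem (ES) cells of the mouse. K3R3 cells made a YFP-tagged (yellow fluorescent protein) form of the histone variant H2A.Z in which 3 lysines near the C-terminus were changed to arginine. Wild-type cells expressed the same fusion with the lysines intact. Both lines carried the transgene in a lentivirus under a doxycycline-inducible CMV promoter (1 µg/ml doxycycline), were sorted for YFP, and also had their own H2A.Z message targeted by a hairpin in its 3′ untranslated region. The labels name 2 hairpins and do not say which was used in these libraries. They give V6.5 (129SvJaexC57BL/6) as the strain, whereas their treatment protocol places the transgenes in KH2 ES cells. The cells had been kept on irradiated fibroblast feeders until the last passage. Whether the wild-type replicates are separate cultures is not stated, and p-values here reflect the spread between these libraries alone, which may be technical. By edgeR that spread is pooled over genes, so an SE or p does not measure a gene's own wild-type spread. K3R3 had no replicate, and its library was assumed to vary like the wild type.

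These families share a principle and differ in their DNA-binding fold. Forkhead factors bind through a winged helix and SOX factors through a high-mobility-group box that bends DNA, whereas T-box factors and the zinc-finger GATA factors each recognise a motif of their own. In ES cells a few members serve pluripotency, metabolism or the cell cycle. Most others specify endoderm, heart, neural crest, cartilage, limb or blood later in development and are held at low level, often at bivalent promoters, which carry an activating and a Polycomb histone mark together. The deposited table classed 30 members as bivalent and 22 as active, by an earlier study, and gave 3 (Foxn3, Foxp1 and Foxp3) neither code.

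The libraries held 24718223 counts for K3R3, against 21614693 and 25426228 for the wild-type replicates. Levels below are read counts relative to library size (CPM) scaled by TMM, edgeR's trimmed-mean normalisation, unless they are given per length as RPKM (read counts relative to gene length and library size). Differences are log2 K3R3 minus wild type, fitted by edgeR with a standard error (SE). The H2A.Z gene H2afz was at 222 CPM in K3R3, against 219 and 232 CPM in wild type. Neither the knockdown nor the label is checked by this, as all libraries had a hairpin and transgene reads count towards the gene. All 10 ES cell markers listed had a row. Their summed level was 4539 CPM in K3R3, against 6900 and 5987 CPM in wild type, with 4 of 10 (Dppa5a, Klf4, Sox2 and Tfcp2l1) called lower and 0 higher by edgeR, and Tfcp2l1 alone by DESeq2. K3R3 lay below both wild-type libraries for 7, between them for 2 (Pou5f1 and Utf1) and above both for 1 (Nanog). Among all active genes from 100 CPM up, 61.7% lay below both. Dppa5a was at 1016 CPM in K3R3, against discordant wild-type values of 1862 and 1189 CPM. In bulk RNA, fewer cells of a type and less RNA per cell cannot be told apart.

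The promoters of both classes of members were mostly rich in the dinucleotide CG (read alike on both strands), a known feature of promoters that can carry bivalent marks. RefSeq promoters (GRCm38.p6, 250 bases before to 50 after the start) were matched by symbol for 39 members. For genes with several starts the median was taken. At least 10 CG were found in 90.5% of 21 bivalent members and 73.3% of 15 active members, beside 88.4% of bivalent and 85.6% of active genes of the table and 43.5% of all promoters in the reference. The median was 22 CG in bivalent members and 31 in active members. The active members thus included both ends of the range, from 3 CG in Foxr2 and Sox5 to 59 in Foxk2, while Foxa1 and Tbx20 had 26 each. Bivalent members ran from 3 to 37 CG, with the 3 in Sox6, a median over 6 starts. The 30 bases with the most CG are shown for these genes, with CG in capitals, since they show both ends of the CG content among active members beside the bivalent members at least 2-fold above both wild-type libraries, and were chosen after values were seen.
Foxa1: gCGCGgggggCGCGCGgCGctggCGCGgCG
Tbx20: ggCGctctctccctgCGcCGctCGgcccCG
Foxk2: CGtCGCGCGaCGaCGcCGgaCGtgCGggCG
Foxr2: cagactctccttgggaatccaCGggtcact
Sox5: aaatgtgctgaattcttgctaaagatCGCG
They lie at chr12:57546177-57546206 (minus strand), chr9:24774396-24774425 (minus), chr11:121259864-121259893 (plus), chrX:153118538-153118567 (plus) and chr6:143947298-143947327 (minus), in that order, each within 250 bases before the annotated start. Foxk2 was at 89.8 CPM in K3R3, against 85.2 and 95.6 CPM in wild type. Foxr2, a forkhead gene of restricted expression, was at 2.88 CPM in K3R3, against 1.71 and 3.42 CPM in wild type. Sox5, a SOXD gene of cartilage and neurons, was at 1.61 CPM in K3R3, against 0.761 and 1.77 CPM in wild type. These 3 active genes lay inside the wild-type range, but the wild-type replicates of Foxr2 and Sox5 lay 0.98 and 1.18 log2 units apart. Foxj2, an active gene with 37 CG named after its values were seen, lay above both wild-type libraries (log2 0.63, SE 0.36). A relation of CG content to the differences was not tested.

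Of the 55 members, 46 reached a mean of 0.5 CPM over the 3 libraries and were tested, and 1 was called higher and 0 lower in K3R3 at an adjusted p of 0.05. The called gene was Foxa1. Over all 13829 genes tested, 2.02% were called higher and 0.542% lower, so the share of members called was close to that background. At an unadjusted p under 0.05, 5 members lay higher (Foxa1, Foxp2, Foxc1, Sox6 and Tbx20) and 1 lower (Foxq1), beside 7.9% and 3.33% of all genes. DESeq2 called 0 members, with 0.239% of genes higher and 0.188% lower. By size alone, Foxa1 and Tbx20 lay at least 2-fold above both wild-type libraries and Foxq1 at least 2-fold below both, after adding 1 CPM. That is 2 and 1 of 42 members with a mean of at least 1 CPM, beside 2.1% and 0.172% of such genes in all.

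**Figure D1:**
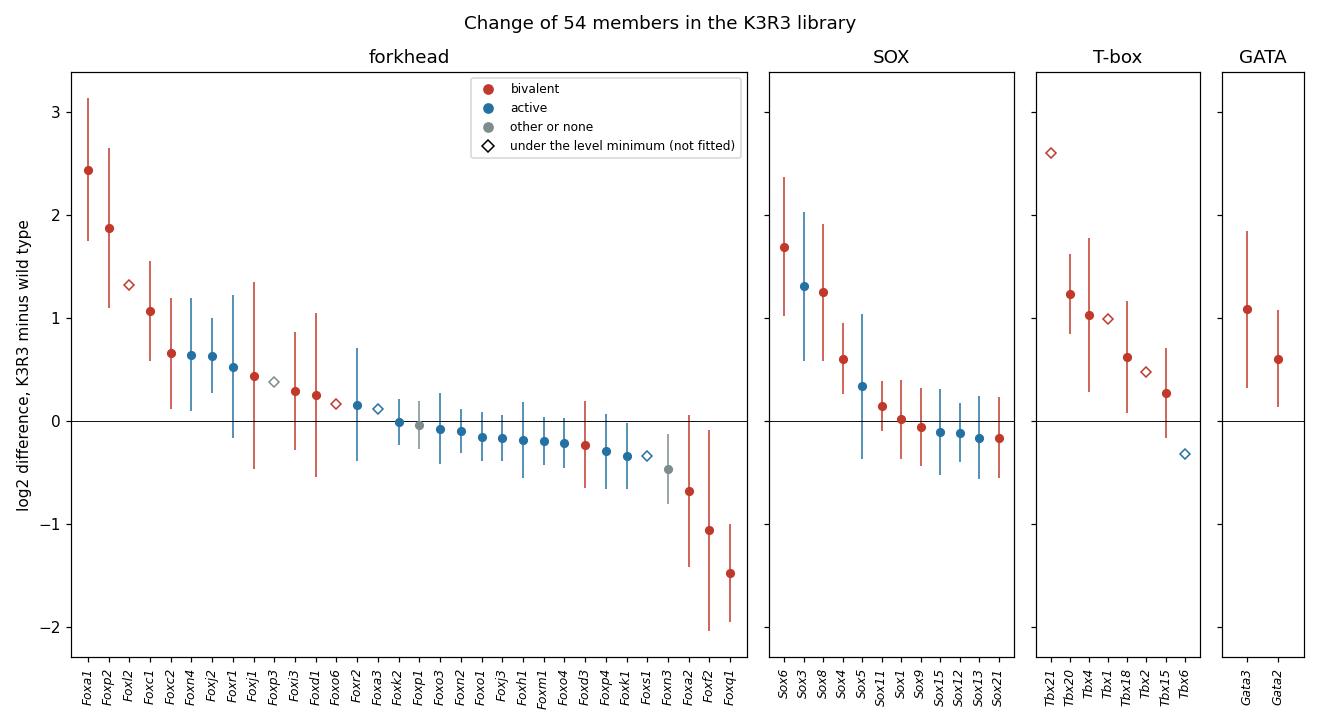
Log2 difference, K3R3 minus wild type, for all members but 1 that is not shown, grouped by family and ordered by size. Filled points are fitted values with bars of 1 SE, open diamonds are members under the level minimum, given as log2 CPM differences (prior count 1), and colour is the class. The bars do not measure each member's own wild-type spread. Bivalent genes hold both ends of the fitted values, from Foxa1 at 2.44 to Foxq1 at -1.48, and the tested active forkhead genes run from -0.34 to 0.64.

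The most abundant forkhead genes of these ES cells were of the active class and differed little between K3R3 and wild type. By RPKM, 9 members had a mean of at least 5 and 5 had at least 10, and those 5 were all active forkhead genes. Foxn2 was the highest, at 16.5 RPKM in K3R3, against 15.6 and 16.9 RPKM in wild type. Foxj3 stood at 89.1 CPM in K3R3, against 88.8 and 111 CPM in wild type, with a mean of 13.5 RPKM. Foxo4, a FOXO factor restrained by insulin and AKT signalling, stood at 12.5 RPKM in K3R3, against 12.8 and 14.0 RPKM in wild type. Foxk2 followed, at 12.6 RPKM in K3R3, against 10.9 and 12.4 RPKM in wild type, and then Foxm1 with a mean of 10.7 RPKM. Foxn2 lay above Foxj3 in every library, with no overlap of their ranges, whereas from Foxj3 down each neighbour in this order overlapped the next. Foxm1, a driver of mitotic gene expression, was at 63.9 CPM in K3R3, against 69.7 and 76.6 CPM in wild type (log2 -0.20, SE 0.24).

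Of the 10 active members with a mean of 10 to 100 CPM (9 forkhead genes and Sox12), the K3R3 value lay below both wild-type libraries for 4, between them for 6 and above both for 0, beside 39.0% below and 23.3% above among all active genes at that level. Their fitted differences ran from -0.34 to -0.0092, with a median of -0.18, and active genes in the same range of levels had a median of -0.05. With library totals taken from the RPKM values, the median over all genes was 0.12 higher, and Foxn2 turned to 0.025. Among the genes named by the rule, Sox12 and Sox15 changed sign under that scaling too, at 0.0098 and 0.018.

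The FOXO group, which links nutrient signals to cell-cycle and stress genes, is represented by 4 members. Foxo1 stood at 62.8 CPM in K3R3, against 63.7 and 76.0 CPM in wild type. Foxo3 stood at 13.4 CPM in K3R3, against 15.2 and 12.9 CPM in wild type, so its K3R3 value lay inside the wild-type range. Of 15 listed FOXO targets, all were tested and 0 were called in either direction, with a median of -0.22. Of 10 regulators of FOXO, Sgk3, a kinase that phosphorylates FOXO proteins, was called higher (log2 1.03, SE 0.29; adjusted p = 0.0251 by edgeR, 0.182 by DESeq2, which lost the call) and 0 were called lower. Among 10 targets of FOXM1, 0 were called, and 7 lay below both wild-type libraries. All were classed as active, and of all active genes 39.0% lay below both at 10 to 100 CPM and 61.7% from 100 CPM up.

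Foxd3 and Foxh1 have known parts in ES cells and Nodal signalling, and were named after their values were seen, as were Foxm1, Foxk2, Foxo1 and Foxo3. Foxd3, a bivalent gene of ES cells and neural crest, had 5.22 CPM in K3R3, against 6.99 and 5.28 CPM in wild type. Foxh1, the SMAD partner in Nodal signalling, had 9.64 CPM in K3R3, against 12.3 and 9.63 CPM in wild type. For Foxd3, K3R3 lay below both wild-type libraries, at -0.42 log2 units against replicate 1 and -0.014 against replicate 2, and replicate 2 differed from replicate 1 by -0.40. For Foxh1, K3R3 lay between them, at -0.35 against replicate 1 and 0.002 against replicate 2. The fitted differences were -0.23 (SE 0.43) and -0.19 (SE 0.37), and neither was called.

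The FOXA genes, pioneer factors that open chromatin in endoderm and liver, gave unlike values. Foxa1 had 81 counts in K3R3, against 13 and 13 in wild type. This is 3.11 CPM in K3R3, against 0.618 and 0.524 CPM in wild type. Foxa1 rose by 2.44 on the log2 scale (SE 0.69; adjusted p = 0.0242 by edgeR), with 2.26 and 2.48 against each wild-type replicate alone. The adjusted p ran from 0.00769 to 0.589 over 5 alternatives, the highest by DESeq2, where the call was lost. At a minimum mean of 2 CPM, Foxa1 was too low to be tested, and 1.88% of the remaining genes were called higher and 0.617% lower. Foxa2, the factor of node, notochord and endoderm, had 0.999 CPM in K3R3, against 1.14 and 2.05 CPM in wild type (log2 -0.68, SE 0.74), and its wild-type replicates differed by more than K3R3 and replicate 1. Foxa3 had 8 counts in K3R3, against 3 and 13 in wild type, and was too low to be tested. Of 7 listed endoderm targets of FOXA factors, only Spink3 had a row, at 2.11 CPM in K3R3, against 2.95 and 3.38 CPM in wild type, and it was not called. The 14 primitive endoderm markers summed to 736 CPM in K3R3, against 1233 and 981 CPM in wild type. K3R3 lay below both wild-type libraries for 10 of them, between them for 3 (Lrp2, Sox7 and Sox17) and above both for 1 (Amn, too low to be tested). Among all bivalent rows 10.3% lay below both, and 10 of these markers were bivalent. Of the 13 tested, 4 (Col4a1, Cubn, Gata6 and Lama1) were called lower and 0 higher by edgeR, with Cubn and Lama1 also called by DESeq2. The part of such cells in the FOXA values was not tested.

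Foxq1, Foxf2 and Foxc1 are direct neighbours on chromosome 13, with no other protein-coding gene between them in the RefSeq annotation, and their values lay on different sides of wild type. Foxq1, an epithelial forkhead factor, had 2.38 CPM in K3R3, against 6.33 and 6.93 CPM in wild type (log2 -1.48, SE 0.47; adjusted p = 0.0622 by edgeR). It missed the threshold, with adjusted p between 0.0614 and 0.446 over 6 alternatives, and the log2 difference was -1.39 and -1.52 against each wild-type replicate alone. Foxf2, a factor of gut and palate mesenchyme, had 0.384 CPM in K3R3, against 0.809 and 0.806 CPM in wild type, which is 10 counts against 17 and 20 (log2 -1.06, SE 0.98). Foxc1, which acts in mesoderm, eye and vessel development, had 5.26 CPM in K3R3, against 2.28 and 2.74 CPM in wild type (log2 1.06, SE 0.49; adjusted p = 0.331 by edgeR). For each of these neighbours the wild-type replicates lay close together and K3R3 lay outside them, though none was called. In a later annotation (GENCODE, GRCm38), Foxq1 and Foxf2 share exon sequence with a gene on the opposite strand, and it is not stated whether reads were counted by strand, so their reads cannot be told from those of that partner. The same limit holds for 13 members in all, among them Foxj2, Foxo1, Sox4, Sox5, Sox8, Sox15, Sox21 and Tbx18. Exons of 8 members, among them Foxd3, Foxm1 and Sox1, overlap another gene on the same strand.

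Other low bivalent forkhead genes stood higher in K3R3 without a call. Foxp2, known for its part in speech and song circuits of the brain, had 1.92 CPM in K3R3, against 0.428 and 0.604 CPM in wild type (log2 1.88, SE 0.78; adjusted p = 0.24 by edgeR). Foxc2, a mesoderm and lymphatic factor, had 3.50 CPM in K3R3, against 2.09 and 2.34 CPM in wild type. Foxc2 was named after its values were seen. Of 14 bivalent forkhead genes, K3R3 lay above both wild-type libraries for 8, below both for 5 and between them for 1, beside 72.6% above and 10.3% below among all bivalent rows. Of 16 active forkhead genes, the counts were 3, 6 and 7, beside 28.9% above and 37.1% below among all active rows. Foxj1, the switch of motile cilia and also low, had 0.768 CPM in K3R3, against 0.523 and 0.604 CPM in wild type, and was named after its values were seen. Of its 10 listed cilium targets with a row, Ccdc40 was called higher (log2 1.27; adjusted p = 0.0406 by edgeR, 0.429 by DESeq2, which lost the call) and 0 lower.

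**Figure D2:**
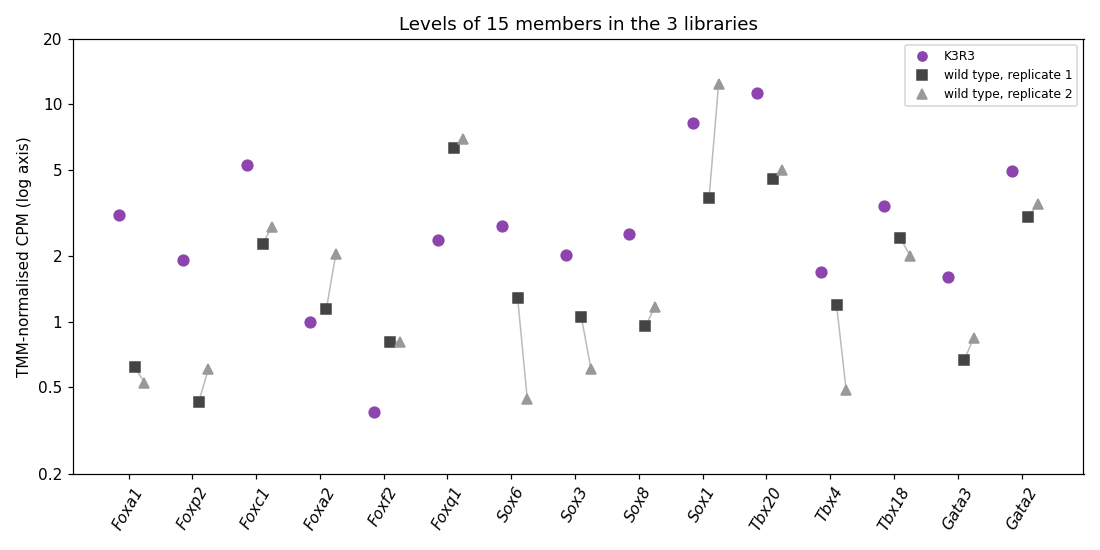
TMM-normalised CPM (log axis) of members in the K3R3 library (circle) and in wild-type replicates 1 (square) and 2 (triangle), joined by a line. The K3R3 values of Foxa1, Foxp2, Foxc1 and Tbx20 sit clear above a close wild-type pair and that of Foxq1 below one, whereas the Sox1 value of 8.18 CPM lies between wild-type values of 3.71 and 12.4 CPM.

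Among the 12 SOX genes, all tested, 0 were called, and K3R3 lay above both wild-type libraries for 5, between them for 7 and below both for 0, beside 35.3% above, 31.5% between and 33.2% below among all rows. The unadjusted p was under 0.05 for Sox6 alone. The SOXC genes, which promote neuronal and mesenchymal progenitors, were the most abundant by length together with Sox15. Sox12 stood at 5.19 RPKM in K3R3, against 4.67 and 5.64 RPKM in wild type. Sox11 stood at 5.19 RPKM in K3R3, against 3.84 and 4.78 RPKM in wild type, and in CPM its K3R3 value of 62.1 lay just above the higher wild-type value of 61.8. Sox4 had 15.6 CPM in K3R3, against 10.7 and 9.87 CPM in wild type (log2 0.60, SE 0.35; adjusted p = 0.565 by edgeR). These SOXC values kept Sox12 inside the wild-type range and left Sox4, named after its values were seen, farthest outside it.

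The SOXB genes, relatives of Sox2 that act in neural progenitors, showed how far the wild-type replicates can lie apart. Sox1 had 8.18 CPM in K3R3, against 3.71 and 12.4 CPM in wild type, and was named after its values were seen. Its replicates differed by 1.73 log2 units, the widest gap of any member, so its fitted difference of 0.015 (SE 0.39) rests on discordant values. The SE does not show this gap, as Sox21, with replicates 0.36 log2 units apart, also had an SE of 0.39. Sox3, an X-linked gene of the same group, had 2.04 CPM in K3R3, against 1.05 and 0.604 CPM in wild type (log2 1.31, SE 0.72; adjusted p = 0.527 by edgeR). Sox21, which counteracts the other SOXB factors, had 7.14 CPM in K3R3, against 6.99 and 8.98 CPM in wild type. The 8 neural progenitor markers gave 6 rows with a sum of 91.0 CPM in K3R3, against 61.6 and 68.8 CPM in wild type. Most of that sum was Nes, the nestin gene, at 65.0 CPM in K3R3, against 38.6 and 42.8 CPM in wild type, which was not called. K3R3 lay above both wild-type libraries for 4 of the 6 rows and between them for 2, beside 72.6% above among all bivalent rows. Those 2 were Pax6, at 14.9 CPM in K3R3, against 12.5 and 17.6 CPM in wild type, and Tubb3, at 9.03 CPM, against 10.1 and 8.14 CPM. Zic1 was called higher (log2 3.58, SE 1.03; adjusted p = 0.0265 by edgeR, 0.808 by DESeq2) and 0 markers lower. It had 1.38 CPM in K3R3, against 0.190 and 0.0403 CPM in wild type. With a wild-type mean of 0.115 CPM, Zic1 reached the minimum of 0.5 CPM only through the K3R3 library. Its call is thus partly set by that choice. The defining neural markers Fabp7 and Dcx had no row, and the part of neural cells in the SOXB values was not tested.

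In the SOXD group, which modulates cartilage and muscle programmes, Sox6 had 2.77 CPM in K3R3, against 1.28 and 0.443 CPM in wild type (log2 1.69, SE 0.67; adjusted p = 0.205 by edgeR). K3R3 exceeded replicate 2 by 2.53 but replicate 1 by 1.08 log2 units, and the replicates differed by 1.45, so the size of the Sox6 difference depended on the replicate. Sox13 had 6.68 CPM in K3R3, between 9.18 and 5.80 CPM in wild type. In the SOXE group, Sox8 had 2.54 CPM in K3R3, against 0.951 and 1.17 CPM in wild type (log2 1.25, SE 0.66; adjusted p = 0.489 by edgeR). Sox9, the master factor of cartilage, named after its values were seen, had 8.99 CPM in K3R3, between 8.28 and 10.4 CPM in wild type. Sox15, an ES cell gene that also acts in muscle, had 6.03 CPM in K3R3, between 8.33 and 4.71 CPM in wild type.

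While Sox9 itself lay inside the wild-type range, 2 of its listed cartilage targets were called. Acan, which encodes aggrecan, rose to 6.22 CPM in K3R3, against 1.86 and 1.97 CPM in wild type (log2 1.70, SE 0.49; adjusted p = 0.0265 by edgeR). Col11a1, a fibrillar collagen of cartilage, rose to 12.9 CPM in K3R3, against 4.04 and 5.32 CPM in wild type (log2 1.46, SE 0.38; adjusted p = 0.0104 by edgeR). Of the 8 targets with a row, 6 lay above both wild-type libraries and 2 between them, and 5 were classed as bivalent. Beside this, 72.6% of all bivalent and 28.9% of all active rows lay above both. Of tested genes, 10.5% of bivalent and 0.838% of active ones were called higher. DESeq2 called neither Acan nor Col11a1. Of 6 POU and PAX partners of SOX factors, 4 were tested and 0 called, and of 6 Groucho co-repressors, which several of these factors recruit, 0 were called. Of the 4 SOX10 targets with a row, Mbp, a myelin gene, was called higher (log2 1.46, SE 0.41; adjusted p = 0.0227 by edgeR, 0.392 by DESeq2, which lost the call) and the other 3 lay between the wild-type libraries.

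The T-box genes were low, and every bivalent one stood above both wild-type libraries in K3R3. That is 7 of 7 bivalent rows, beside 72.6% of all bivalent rows, and 0 T-box genes were called, with Tbx20 alone at an unadjusted p under 0.05. Of the 7, 3 were too low to be tested, and Tbx2 exceeded replicate 1 by only 0.011 log2 units. Tbx20, a factor of heart and motor neurons, came closest, with 11.2 CPM in K3R3, against 4.52 and 5.00 CPM in wild type (log2 1.24, SE 0.39; adjusted p = 0.0548 by edgeR). Its adjusted p ran from 0.0187, with library totals implied by RPKM, where it passed, to 0.5 over 6 alternatives. That scaling called 3.37% of all genes higher and 0.362% lower. Tbx4, a hindlimb and lung factor, had 1.69 CPM in K3R3, against 1.19 and 0.483 CPM in wild type. Its neighbour on chromosome 11, Tbx2, had 5 counts in K3R3, against 4 and 2 in wild type. Tbx18, a factor of the sinus node and somites, had 3.42 CPM in K3R3, against 2.43 and 2.01 CPM in wild type, and Tbx15, its relative in skin and limb, had 5.61 CPM in K3R3, against 5.09 and 4.23 CPM in wild type. The log2 differences of Tbx18 and Tbx15 were 0.62 (SE 0.54) and 0.27 (SE 0.44), and neither was called.

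Tbx21, the T-bet gene of T helper cells, was too low to be tested and was named after its values were seen. It had 18 counts in K3R3, against 1 and 3 in wild type, a ratio of 7.92 over the pooled wild type with an exact 95% interval of 2.61 to 32.2, which covers counting error only. Tbx1, a pharyngeal factor, had 18 counts in K3R3, against 7 and 8 in wild type. Tbx6, the only active T-box gene and a gene of presomitic mesoderm, had 8 counts in K3R3, against 9 and 9 in wild type. Mef2c, Hand1 and Isl1, the cardiac partners of T-box factors with a row, gave 0 calls, with 3.34 CPM for Mef2c in K3R3, against 0.999 and 0.886 CPM in wild type.

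Both GATA genes, which are bivalent, also stood above both wild-type libraries without a call, beside 72.6% of all bivalent rows. Gata2, a factor of blood stem cells and trophoblast, had 4.96 CPM in K3R3, against 3.04 and 3.46 CPM in wild type (log2 0.60, SE 0.47). Gata3, a factor of T cells and trophoblast, had 1.61 CPM in K3R3, against 0.666 and 0.846 CPM in wild type (log2 1.08, SE 0.76). Gata3 overlaps an antisense transcript in the later annotation. Of 9 listed GATA partners with a row, Lmo2, a bridging factor of blood GATA complexes, rose to 6.45 CPM in K3R3, against 1.05 and 1.57 CPM in wild type (log2 2.29, SE 0.51; adjusted p = 0.00112 by edgeR). DESeq2 did not call it, and 0 partners were called lower. Lmo2 and 4 of the other partners were bivalent, a class in which 10.5% of tested genes were called higher. Of 8 GATA1 erythroid targets, Klf1, Epor and Alas2 had a row, and each lay between the wild-type libraries.

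Several of these factors are also genes of mesenchyme, so fibroblast and mesoderm markers were set beside them. Of 20 fibroblast markers, 18 had a row, and K3R3 lay above both wild-type libraries for 7, below both for 2 and between them for 9. Over all rows of the table the shares were 35.3%, 33.2% and 31.5%. Their summed level was 1211 CPM in K3R3, against 1669 and 1527 CPM in wild type, and Thy1 alone was called, higher, by edgeR and not by DESeq2. Fn1, the fibronectin gene, made up most of the sum, at 864 CPM in K3R3, against 1229 and 1197 CPM in wild type, and was not called. The median fitted difference of the list was 0.041. The fibroblast markers Lum and Postn had no row. Of 8 mesoderm markers, 5 had a row, with a sum of 16.2 CPM in K3R3, against 11.9 and 8.86 CPM in wild type, and the brachyury gene T, itself a T-box gene without such a symbol, was called higher. K3R3 lay above both wild-type libraries for 4 of them, all 5 being bivalent, beside 72.6% of all bivalent rows. Eomes, another T-box gene, lay below both, at 5.15 CPM in K3R3, against 8.61 and 5.64 CPM in wild type (log2 -0.47, SE 0.42). Mesp1, Msgn1 and Evx1 had no row. The part of these cell types in the member values was not tested.

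Bivalent and active members lay differently against wild type. Over the 30 bivalent rows, K3R3 lay above both wild-type libraries for 21 (70.0%), below both for 5 and between them for 4, beside 72.6% above, 10.3% below and 17.1% between among all bivalent rows. Over the 22 active rows, the counts were 4 (18.2%), 7 and 11, beside 28.9% above, 37.1% below and 34% between among all active rows. Over all rows of the table, 35.3% lay above, 33.2% below and 31.5% between. The median log2 CPM difference was 0.54 over the bivalent rows and -0.10 over the active rows, beside 0.73 and -0.03 over all rows of these classes. Against each wild-type replicate alone, the bivalent median was 0.53 and 0.54 and the active median -0.035 and -0.11. Wild-type replicate 2 differed from replicate 1 by 0.15 and 0.0014 in these medians. Among tested members, 1 of 25 bivalent and 0 of 19 active genes were called higher, beside 10.5% and 0.838% of tested genes of these classes (lower: 0 and 0, beside 0.539% and 0.473%). Of those tested genes, 164 of 1671 bivalent and 135 of 10984 active genes passed the level minimum only with K3R3, and 0 members did.

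**Figure D3:**
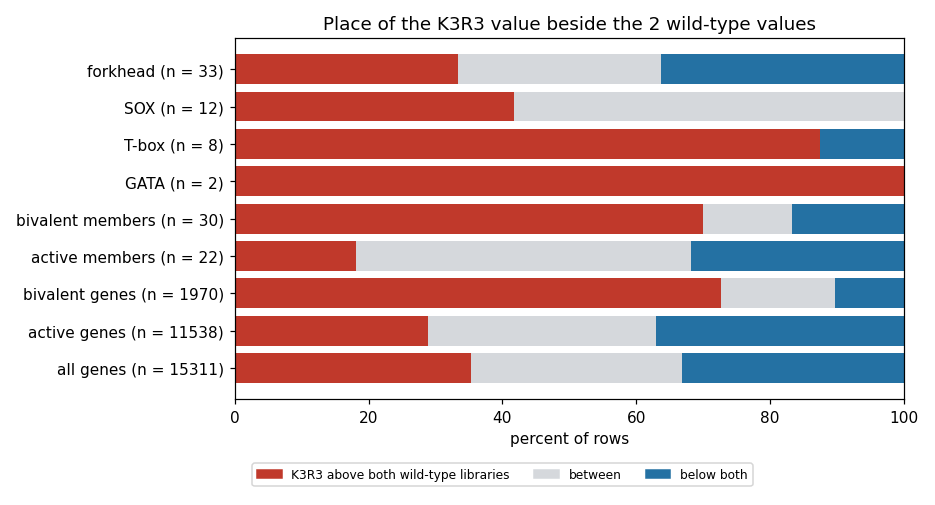
Percent of rows for which the K3R3 value lay above both wild-type libraries, between them or below both, for the families, the classes of members and all genes. Bivalent members (70.0% above) resemble all bivalent genes (72.6%). Active members (18.2%) and all active genes (28.9%) both lie under all genes (35.3%).

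The replicate spread bears on these counts. For 14 of 22 active members (63.6%) the wild-type replicates differed from each other by more than K3R3 differed from their mean, against 9 of 30 bivalent members (30.0%) and 52.2% of all rows. Over all genes of these classes the shares were 55.1% of active and 34.4% of bivalent rows, near those of the members. Bivalent forkhead genes had a median log2 CPM difference of 0.31, against -0.12 for active forkhead genes, and bivalent SOX genes had 0.27, against -0.055 for active SOX genes. The SOX values depended on the replicate, since against replicate 1 the medians were 0.54 for bivalent and 0.018 for active SOX genes, and against replicate 2 they were 0.0074 and 0.20, in the opposite order. The summed level of bivalent members was 169 CPM in K3R3, against 127 and 152 CPM in wild type, and that of active members was 602 CPM in K3R3, against 626 and 679 CPM in wild type.

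Class and level went together. Of the 30 bivalent members, 2 (Sox4 and Sox11) had a mean of at least 10 CPM, against 11 of the 22 active members. At a mean of 0.5 to 2 CPM, 10 bivalent members had a median log2 CPM difference of 1.08 and all bivalent genes 1.07, while 3 active members had 0.62 and all active genes 0.45. This mean includes K3R3, so genes high in K3R3 alone can enter the range. By wild type alone, 163 of these 614 bivalent and 135 of these 1040 active genes averaged under 0.5 CPM, and 0 members did. The medians of all genes at this level are thus partly set by that choice. Against each wild-type replicate alone the members' medians at this level were 0.80 and 0.99 for bivalent and 0.93 and 1.19 for active genes, so the order of the classes turned round. At 2 to 10 CPM, 13 bivalent members had 0.27, against 0.71 for all bivalent genes, and 5 active members had 0.25, against 0.16 for all active genes. Against wild-type replicate 1 the medians at 2 to 10 CPM were 0.49 for bivalent and 0.58 for active members, and against replicate 2 they were -0.014 and 0.35. The difference between the classes at equal level was not tested. With so few genes, class and level of the members cannot be told apart.

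**Figure D4:**
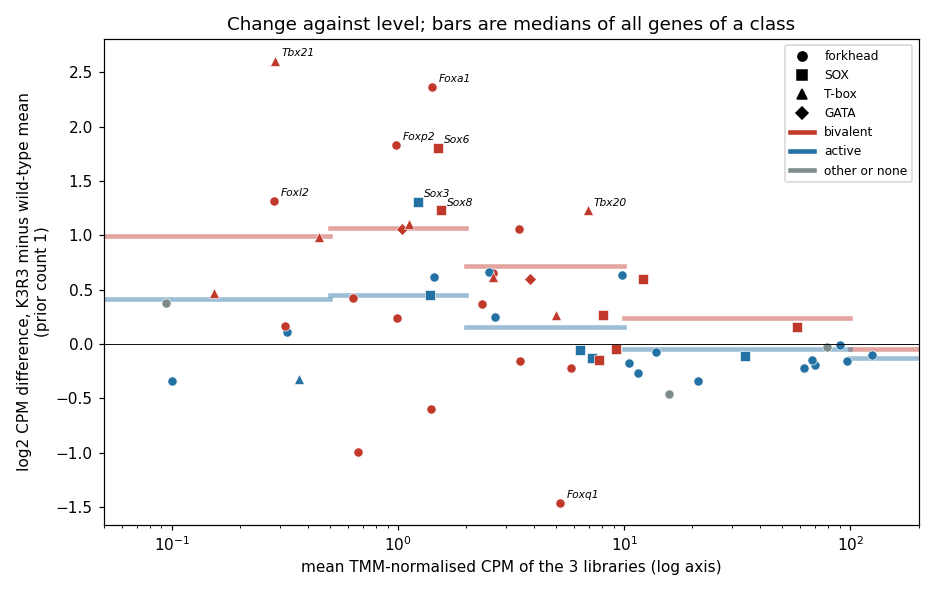
Log2 CPM difference (prior count 1), K3R3 minus the wild-type mean, against the mean CPM of the 3 libraries (log axis) for each member, with the family as symbol and the class as colour. Bars give the median of all bivalent and all active genes in each range of level, falling from 1.07 to 0.24 for bivalent genes and from 0.45 to -0.046 for active genes between 0.5 to 2 and 10 to 100 CPM. The level includes K3R3, so the fall is partly set by how genes enter the lower ranges.

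The authors' deposited table gave 3 members an unadjusted p under 0.05. These were Foxa1 (p = 0.0127), Tbx20 (p = 0.0101) and Foxq1 (p = 0.0154) in the authors' deposited table, beside 3.67% of rows higher in K3R3 and 1.19% lower by the counts. By their values the deposited log2 folds are wild type over K3R3, since for 22 members with a difference above 0.5 in size, 100% had the sign opposite to K3R3 minus wild type. Directions here come from the counts and depend on the names of the count columns.

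Of 11 listed family relatives that were not members, 10 had a row and 4 were called. T rose, and Sox2, Tbx3 and Gata6 fell (log2 2.89, -0.62, -1.25 and -1.18), beside the 2.02% of all genes called higher and 0.542% called lower. By DESeq2 only Tbx3 of these was called, and the adjusted p was 0.161 for T, 0.234 for Sox2 and 0.264 for Gata6.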

How the data were processed

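The authors' deposited table held whole-number read counts per gene for 3 libraries, RPKM values, and the authors' log2 ratio and p-value of their own comparison, each as the file headers name them. HTSeq 0.5.4p1, DESeq 1.10.1 and mm9 are named in the submitters' processing notes. Whether reads were counted by strand is not given in the sources used here. Active and bivalent codes came from an earlier study, per the file headers.

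Counts were scaled by TMM over all 15311 rows, and 13829 genes that reached 0.5 CPM on average were fitted with edgeR 4.0.16 (R 4.3.3), K3R3 against wild type, by its quasi-likelihood F test, calling genes at a Benjamini-Hochberg adjusted p of 0.05. That average included K3R3, and 354 genes passed it only through K3R3, 0 of them members. The fit had 1 residual degree of freedom, so the spread was shared over genes (common dispersion 0.0325). The shared spread took full weight (prior degrees of freedom Inf), so the SE follows level and not the gene's own replicates. The fit was also run on simulated counts, which does not check the assumption that K3R3 varies like wild type. Log2 CPM differences used a prior count of 1. DESeq2 1.42.0, other scalings, other filters, a likelihood ratio test and leaving out each wild-type library were alternatives. Intervals of count ratios are exact, conditional on the total. Depth was 21614693 to 25426228 counts.

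The members and gene lists were chosen with earlier results of these data known. Genes named by rule were the called members, those past 2-fold of both wild-type libraries, per family the 3 tested members with the largest rise, the 3 with the largest fall and the 3 of highest mean RPKM, and the called genes of the pathway lists. Called markers were picked out by their values. Calls in the gene and marker lists stand beside 2.02% of all tested genes called higher and 0.542% lower. Among tested bivalent genes these shares were 10.5% and 0.539%. The values of 1 member are not reported here, and it stays in the counts and medians.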

Additional observations from a re-analysis of the deposited data

How the results depend on the processing

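The count of members called higher was 1 by edgeR, 0 by DESeq2, 0 at a mean CPM of at least 2, where Foxa1 was not tested, and 2 (Foxa1 and Tbx20) with library totals implied by RPKM, beside 0.239%, 1.88% and 3.37% of all genes. Tbx20 then had 1.36 and an adjusted p of 0.0187 by edgeR, and Foxa1 had 0.589 by DESeq2. Unless a wild-type library was left out, the medians here are of fitted differences of tested members. These were 0.081 over all, 0.44 over bivalent, -0.11 over active, -0.086 over forkhead, 0.081 over SOX, 0.83 over T-box and 0.84 over GATA members, with bivalent minus active at 0.55. With implied totals the median was 0.20 over all members, 0.56 over bivalent, 0.018 over active and 0.038 over forkhead members, and Foxn2, Sox12 and Sox15 turned to 0.025, 0.0098 and 0.018. The shift of all genes by 0.12 is part of that scaling. At a mean CPM of at least 2 the medians were -0.074 over all, 0.27 over bivalent, -0.13 over active and -0.15 over forkhead members, and bivalent minus active was 0.40. The SOX median was -0.084 and the T-box median 0.62, so the medians over all and over SOX members changed sign. Of the GATA members only Gata2 was tested at that minimum, at 0.60. Without a filter the bivalent median was 0.56 and bivalent minus active 0.69. The cause was not tested. Leaving out each wild-type library, nothing was fitted, and the medians are of log2 CPM differences (prior count 1) of tested members. They ran from -0.090 to -0.021 for active, -0.099 to -0.0078 for forkhead, 0.11 to 0.42 for SOX and 0.49 to 0.96 for T-box members, and bivalent minus active from 0.49 to 0.54. Being of another measure, these ranges need not hold the fitted medians. No paired analysis was possible because K3R3 had 1 library. Tbx21, tested only without a filter, had an adjusted p of 0.156 by edgeR.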
